A study of Drosophila melanogaster with 2 samples.

Results

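CTCF is a zinc finger protein of animal genomes that binds DNA at insulators, the elements that separate a regulatory sequence from promoters on its other side. In Drosophila it is one of several insulator proteins and is best known at the boundaries of the bithorax complex. The results here concern 10 genes that lie in or next to some of the strongest CTCF binding sites of the fly embryo, namely mtSSB, sgll, CG10600, CG13896, for, TfAP-2, RapGAP1, CG10357, CG5568 and crp. They were chosen by the measured signal: each is in or beside 1 of the 20 reproducible peaks with the highest signal, so that a strong peak at each gene is a condition of the choice and not a result. They are 10 of the 17683 annotated genes on the chromosome arms.

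Binding was measured by ChIP-seq, in which DNA that comes down with a protein is sequenced. The material was intact Drosophila melanogaster embryos, aged 0 to 16 h, with both sexes pooled. The embryos came from a stable transgenic line that makes CTCF fused at its C terminus to GFP, and the fusion was precipitated with an antibody against GFP. There was 1 group of 2 biological replicates, numbered 2 and 3 in the labels, with no second condition and no untagged line analysed here, and the labels do not say whether untagged CTCF was also made. The authors' reproducible list held 5443 peaks with a median signal of 345 (range 195 to 89235), where signal is the peak score the authors deposited, with no scale stated, and reads per sample are not known from the sources used here. A peak from whole embryos cannot be assigned to a tissue, and strong binding in few cells and weak binding in many cells cannot be told apart.

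Each strongest site held DNA that is the CTCF core motif or close to it. The core was searched on both strands in its 4 forms AGAGGGCGC, AGATGGCGC, AGGGGGCGC and AGGTGGCGC. The sequences below were read from RefSeq's assembly for dm6, 5′ to 3′ on the strand that reads the copy nearest the summit among the best matches, and capitals mark every whole copy of the core with at most 1 mismatch. They are shown because the genes differ in how many copies they have, how exact these are and how they are spaced. For CG10600 and CG10357, whose summits lie in annotated 3′ UTRs, the copy is shown with 10 bases on either side.
mtSSB, chr3R:16205484-16205584, plus strand: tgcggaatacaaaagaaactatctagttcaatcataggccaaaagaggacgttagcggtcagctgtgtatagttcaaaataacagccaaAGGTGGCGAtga
sgll, chr3R:7810218-7810440, minus strand: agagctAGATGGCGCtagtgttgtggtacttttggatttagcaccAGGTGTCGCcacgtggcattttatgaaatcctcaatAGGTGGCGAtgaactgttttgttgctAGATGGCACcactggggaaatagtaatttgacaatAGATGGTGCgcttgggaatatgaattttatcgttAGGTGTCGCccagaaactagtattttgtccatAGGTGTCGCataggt
CG10600, chr2L:18839797-18839825, minus strand: actcgcctatAGATGGCGCacttacacgt
CG13896, chr3L:712170-712270, plus strand: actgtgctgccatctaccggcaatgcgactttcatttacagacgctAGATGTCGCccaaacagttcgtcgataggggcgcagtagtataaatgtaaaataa
crp, chr2L:16287808-16287908, minus strand: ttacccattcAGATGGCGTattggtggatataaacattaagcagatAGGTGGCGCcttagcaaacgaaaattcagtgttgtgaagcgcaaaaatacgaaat
for, chr2L:3657442-3657542, minus strand: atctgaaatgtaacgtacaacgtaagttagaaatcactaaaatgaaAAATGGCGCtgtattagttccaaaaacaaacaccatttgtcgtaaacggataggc
CG5568, chr3L:5869750-5869850, plus strand: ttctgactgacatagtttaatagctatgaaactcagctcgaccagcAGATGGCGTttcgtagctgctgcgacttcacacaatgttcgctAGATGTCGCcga
CG10357, chr3L:3616563-3616591, plus strand: acttaagtatAGATGGCGGttaaaccccg
TfAP-2, chr3L:21604454-21604554, plus strand: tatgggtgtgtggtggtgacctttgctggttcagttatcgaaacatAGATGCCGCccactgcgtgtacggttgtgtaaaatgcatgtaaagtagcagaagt
RapGAP1, chr2L:7535034-7535134, plus strand: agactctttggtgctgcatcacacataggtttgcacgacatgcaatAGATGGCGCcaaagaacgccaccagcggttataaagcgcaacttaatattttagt

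An exact copy lay within 50 bp of the summit at 3 of the 10 sites, those of CG10600, RapGAP1 and crp, where 12.7% of all reproducible peaks have one. A copy with at most 1 mismatch lay within 50 bp at 9 of the 10, against 24.8% of all reproducible peaks and 5.02% of windows of the same width to the side of the peaks. The exception was mtSSB, whose nearest such copy was centred 53 bp from the summit, just past that limit, so that within 100 bp all 10 sites had one, against 29.0% of all peaks. The other 10 of the 20 strongest peaks had an exact copy within 50 bp in 7 cases and a copy with at most 1 mismatch in 9. The sites were chosen by signal and not by sequence, but the comparison was made with the motif counts of the strongest peaks already known, so it is given with no test.

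At 6 genes the best copy within 50 bp had 1 mismatch. Counting from 1 at the 5′ end of the core, with the base of the core first, the best copy within 50 bp had its mismatch at position 9 for 3 genes, as C9A at sgll, C9G at CG10357 and C9T at CG5568. At CG13896 the mismatch was G6T and at TfAP-2 it was G6C, which put 2 genes at position 6. Where copies tied, the one nearest the summit was taken, so these tallies depend on that rule. The tied copies left out had G6T at sgll and at CG5568, G8A at sgll, G8T at TfAP-2 and A1G at CG10357. The gene for had G2A and no other copy within 200 bp. Just before the core, the base T stood in 7 of the 9 best copies, and the base before that was A in 7 of the 9. In the 9 best copies of the other strongest peaks, T stood in 4 and A in 1. Among the 692 peaks with an exact core within 50 bp the corresponding counts were 300 with T and 266 with A, and C was the more frequent base in both places there, with 321 and 285. At the described genes the best copy was centred 3 to 35 bp from the summit and read along the same strand as the gene at 6 of the 9.

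The site of sgll stood out by number. Within 200 bp of its summit it had 7 copies with at most 1 mismatch, all on the minus strand and 1 of them exact, centred from 117 bp to the left to 85 bp to the right. Their starts were 26 to 39 bp apart. No other of the 5443 reproducible peaks had as many: 0.0184% of the peaks, this 1 alone, had 7 or more, 4 peaks had 5 or more, and the median over all peaks was 0. They lie wholly between the starts of sgll and its divergent neighbour CG2993.

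Number and exactness varied among the other 9. CG10357 had 5 copies within 200 bp, on both strands, with the exact one centred 75 bp from the summit. CG5568, the gene at the strongest of the 10 sites, had 3 copies and none exact. CG10600, RapGAP1, crp, TfAP-2 and mtSSB had 2 each, both of them exact at CG10600, 1 exact at RapGAP1 and at crp and none exact at TfAP-2 or mtSSB. CG13896 and for had 1 copy each, neither exact. The median over the 10 sites was 2 copies, against 2.5 at the other 10 of the strongest 20. The window of 200 bp, like that of 100 bp for inexact copies, was chosen after the data had been examined.

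**Figure D1:**
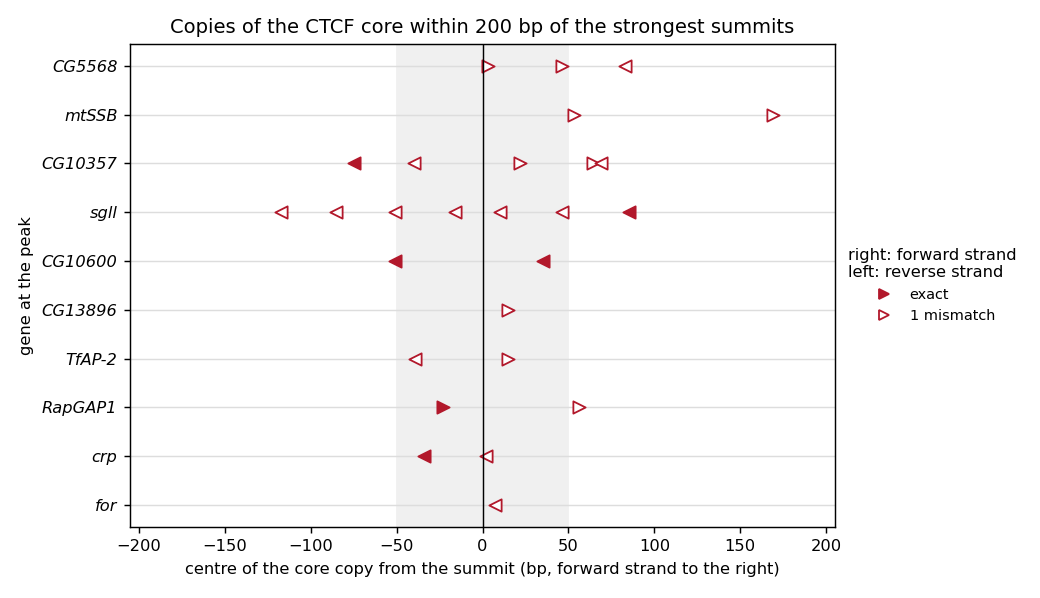
Copies of the CTCF core within 200 bp of the summit of the strongest peak of each gene, by distance in bp along the forward strand, with filled triangles for exact copies, open triangles for copies with 1 mismatch and the direction of a triangle for the strand. The grey band marks 50 bp on either side; sgll has 7 copies, all on the reverse strand, while mtSSB has none inside the band and its nearest at 53 bp.

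Sequences of other factors were also looked for within 50 bp on both strands, a search added after the data had been examined. None of the 10 sites held the DNA replication-related element TATCGATA, Motif 1 (GGTCACAC) or the GAGA sequence GAGAG, which 2.83%, 2.48% and 11.1% of all reproducible peaks held. The short BEAF-32 sequence CGATA was present at 3 sites, CG10600, CG13896 and TfAP-2, against 18.6% of all peaks. The Pho core GCCAT was present at 8 sites, all but mtSSB and TfAP-2, against 22.6%. Its reverse complement is part of the form AGATGGCGC of the CTCF core, so that the letters of both can overlap. At CG13896 it lay outside the marked copy, in a word with 2 mismatches to the core. The sequence within 50 bp of the summit had a GC content of 35.6% at for to 50.5% at TfAP-2, with a median of 44.6% against 40.6% over all peaks.

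At 6 of the 10 genes the strongest peak sat at the gene's own promoter, within 1 kb of its transcript start: CG10600, crp, sgll, mtSSB, CG13896 and for. That share is close to the 62.7% of all reproducible peaks that lie within 1 kb of a start, and 3 of the other 10 strongest peaks did. All 6 summits were upstream of the start and not inside the gene. The remaining 4 lay 1704 bp upstream of CG5568, in the 3′ UTR of CG10357 and in introns of TfAP-2 and RapGAP1. Over all genes, 24.4% had a reproducible summit within 1 kb of a start, and 0.843% had 1 of the 20 strongest peaks in the gene or within 20 kb.

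The gene mtSSB (FBgn0010438, chr3R:16204194-16205250, minus strand) encodes the mitochondrial protein that coats single-stranded DNA while the organelle genome is replicated. In replicate 2 its peak had a signal of 26684, in replicate 3 one of 31729.5, and 58474 in the pooled list, where it ranked 4. Replicate 3 was higher by 0.25 on the log2 scale. The summit lay 274 bp upstream of the start, and the peak was 1746 bp wide, the widest of the 10. On its other side the next gene was lncRNA:CR45639, with its 3′ end towards the peak at 2668 bp.

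The gene sgll (FBgn0051472, chr3R:7810532-7811912, plus strand) encodes pyridoxine 5′-phosphate oxidase, the enzyme that makes the active form of vitamin B6. Its peak gave 23765 in replicate 2, 26114 in replicate 3 and 49854 in the pool, rank 8. The summit lay in the promoter shared with CG2993, 187 bp upstream of sgll and 331 bp upstream of CG2993, which are transcribed away from each other with starts 518 bp apart. The only other divergent pair at these peaks with both starts within 1 kb was crp and pkaap.

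The gene crp (FBgn0001994, chr2L:16263556-16287730, minus strand) encodes cropped, a basic helix-loop-helix leucine zipper transcription factor, and pkaap a protein that anchors protein kinase A. The peak between them reached 20571 in replicate 2 and 22139.6 in replicate 3, and 42708 pooled, rank 18. It lay 162 bp from the start of crp and 398 bp from that of pkaap, which are 560 bp apart.

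The gene for (FBgn0000721, chr2L:3622074-3656953, minus strand) encodes foraging, a protein kinase activated by cyclic GMP and known for natural variants that change how far larvae move when they feed. Its peak, the weakest of the 10, reached 20674 in replicate 2, 21184 in replicate 3 and 41822 pooled. The replicates were closest here, with a log2 ratio of 0.04, and the peak was the narrowest at 846 bp. The gene has 13 transcripts from 4 distinct starts, and the summit lay 532 bp upstream of the outermost of these. On its other side the start of Drgx, a homeodomain transcription factor gene, faced it from 5260 bp.

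The last 2 promoter sites belong to genes with no role given here. At CG10600 (FBgn0032717, chr2L:18833710-18839679, minus strand) the signal was 22741 in replicate 2, 26339 in replicate 3 and 49063 pooled, rank 9, with the summit 97 bp upstream of the start, the shortest distance of the 10. That position is also within the 3′ UTR of CG31752, a gene of 1683 bp. At CG13896 (FBgn0035159, chr3L:710820-711850, minus strand) the signal was 22732 in replicate 2 and 26187 in replicate 3, with 48924 pooled and rank 10, and the summit lay 355 bp upstream. The pair therefore had nearly equal signals in each replicate.

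CG5568 (FBgn0035641, chr3L:5871501-5873518, plus strand) had the strongest of the 10 peaks. Its signal was 28992.5 in replicate 2, 32116 in replicate 3 and 61078 pooled, rank 2. The site was intergenic, 1704 bp upstream of CG5568, and the gene on its other side was vn, which encodes the neuregulin-like EGF receptor ligand vein. The start of vn faced the peak from 24133 bp, and no gene beside the other 5 intergenic sites was as far from its summit.

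At CG10357 (FBgn0035453, chr3L:3615382-3616682, plus strand) the summit was near the end of the gene and not its beginning. The signal was 24892 in replicate 2 and 27542 in replicate 3, and 52334 pooled, rank 7. The summit lay in the 3′ UTR, 1173 bp from the start and 127 bp from the 3′ end. The neighbours CG10359 and CG14974 both had their 3′ ends towards the peak, at 1311 and 3878 bp, so that neither faced it with its start.

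TfAP-2 and RapGAP1 held their peaks in introns. TfAP-2 (FBgn0261953, chr3L:21586828-21613349, plus strand) encodes a transcription factor of the AP-2 family that acts in leg and nervous system development. The peak had 22713 in replicate 2, 24982.5 in replicate 3 and 47651 pooled, rank 12. It lay in the intron of 4 of the 6 transcripts and was exonic in none, 17661 bp from the 5′ end of the gene and 3634 bp from the nearest of its 3 starts, that of the shortest transcripts, which begin beyond the peak. The nearest other genes were lncRNA:CR43940, which lies within TfAP-2, at 9029 bp and S1P, a protease gene, at 9308 bp.

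RapGAP1 (FBgn0264895, chr2L:7497805-7578980, minus strand) encodes a GTPase-activating protein that switches off the small GTPase Rap1. With 81176 bp it was the longest of the 10 genes. Its peak had 19779.8 in replicate 2 and 23669.9 in replicate 3, and 43422 pooled, rank 16, with the highest log2 ratio of the 10 at 0.26. The summit lay in an intron of 4 of its 5 transcripts, 43873 bp from the 5′ end and 4533 bp from the nearest start, which again belongs to a shorter transcript that begins beyond the peak.

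All 10 strongest peaks were higher in replicate 3 than in replicate 2, with log2 ratios of 0.04 to 0.26 and a median of 0.15 ± 0.07 (SD over the 10 peaks). Over the 5233 reproducible peaks matched in both replicates the median was 0.10 ± 0.42 (SD), so most of them were also higher in replicate 3. The other 10 of the strongest 20 ran from -0.02 to 0.25, and only the peak nearest CTCF was lower in replicate 3. The shift may not be read as a difference in binding, since depth is unknown and the scores of each replicate were made separately. Summits moved by at most 6 bp between replicate and pooled lists. The peaks of 9 of the 10 genes ranked among the 20 strongest in both replicates, and that of for ranked 16 in replicate 2 and 23 in replicate 3. The pooled signal that chose these peaks was close to the sum of the 2 replicate signals. High ranks in both replicates therefore follow in part from the choice.

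The limit of 20 peaks is arbitrary at its edge. Inside it were for with 41822 at rank 20 and the peak nearest CG15282 with 42268 at rank 19. Just outside were the peak nearest lncRNA:CR46258 with 41798 and that nearest CG1354 with 41179. The difference between ranks 20 and 21 was smaller than the difference between the replicates at either.

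**Figure D2:**
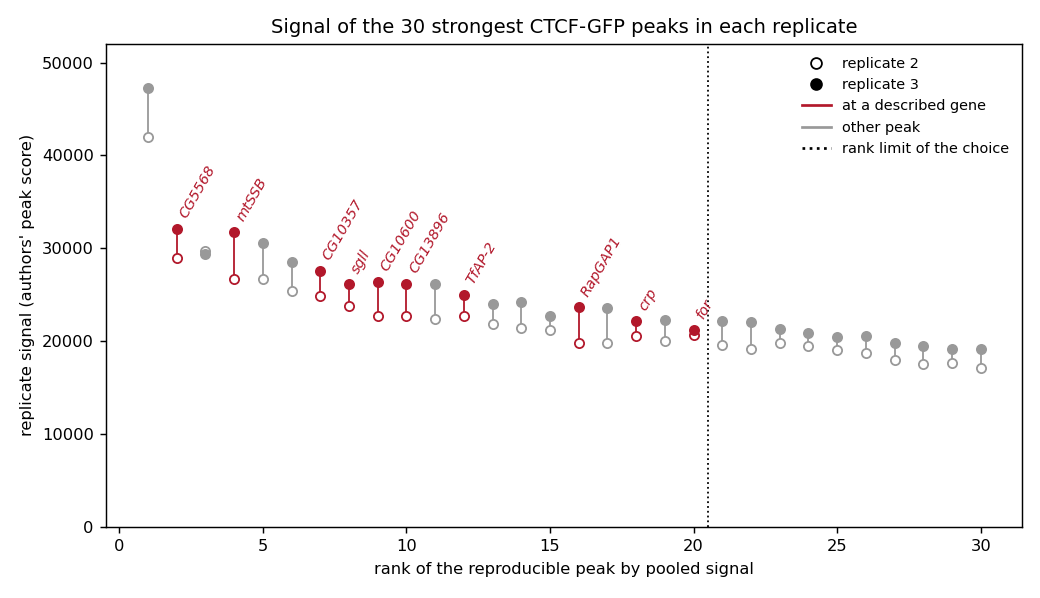
Signal, as the authors' peak score, of the 30 strongest reproducible peaks in replicate 2 (open circles) and replicate 3 (filled circles) by rank in the pooled list, with the peaks of the 10 genes in red. The dotted line is the rank limit of the choice; the red peaks fall from 32116 in replicate 3 at CG5568 to 21184 at for with no step at the limit.

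The strongest peaks were also broad. Their widths ran from 846 to 1746 bp with a median of 1299.5 bp, against 1361.5 bp for the other 10 of the strongest 20 and 436 bp for all reproducible peaks, and 4 peaks listed in the whole set were wider than that of mtSSB. Their pooled signal was 121 to 177 times the median of all peaks. Width and signal come from the same peak calls and are not independent measures.

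Around these peaks the other CTCF signal was small beside that of the strongest peak. The windows of the 10 genes, each the gene with 20 kb on either side, held 54 reproducible peaks in all, the 10 strongest and 44 others. Of all 54, 19 were in gene bodies, 22 upstream and 13 downstream. The number per gene had a median of 5.5 and ran from 1 to 10, and 8 of the 10 genes had at least 2 peaks, against 63.8% of all genes and a median of 2. Each of these counts includes the strongest peak, for which the gene was chosen. At least 1 peak per gene was thus fixed by the choice, which is not so for all genes. The 10 genes were longer than most, with a median of 3994 bp against 1710 bp. The longest windows were those of RapGAP1 (121.176 kb), for (74.88 kb), TfAP-2 (66.522 kb) and crp (64.175 kb). They held 6, 9, 2 and 10 peaks in that order, of which 4, 6, 1 and 7 lay in the gene body. Among the shorter windows, that of CG13896 (41.031 kb) held 8 peaks and that of mtSSB (41.057 kb) held 7. The windows of sgll and CG5568 held 1 each. Whether length bears on the count was not tested. The 44 other peaks had a median signal of 302, below that of the whole list, and 3 of them exceeded 1000. The strongest peak of each window is left out of the 44 by definition, while the whole list keeps its strongest peaks, so the 2 medians are not like for like.

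As a share of the summed signal in its window, the strongest peak held a median of 96.2%, with for lowest at 79.7% and crp next at 86.9%. The share was lower than the median at CG13896 and RapGAP1 as well. It was 95.9% at mtSSB, 96.4% at CG10600, 97.3% at CG10357 and 99.6% at TfAP-2. At sgll and CG5568 it was 100%, since no other reproducible peak lay in the window. Since the strongest peak was chosen for its signal, a high share follows in part from the choice.

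**Figure D3:**
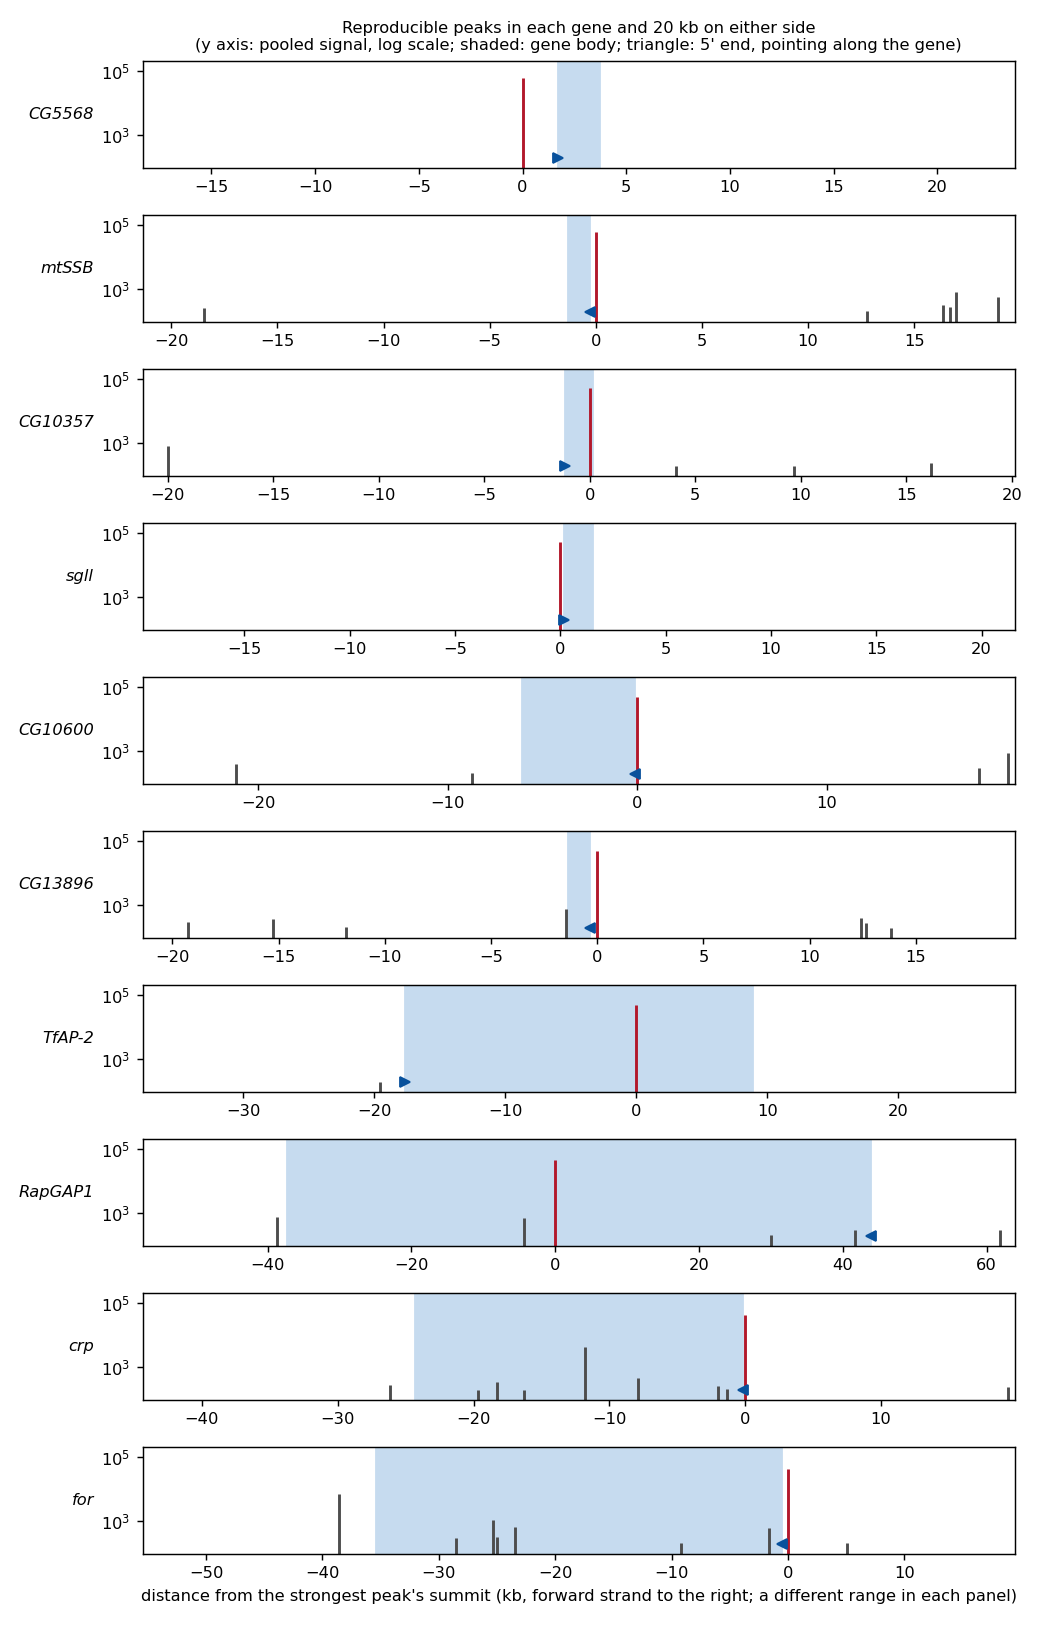
Reproducible peaks in each gene and 20 kb on either side, placed by distance in kb from the summit of the strongest peak, with pooled signal on a log scale. The shaded block is the gene body and the triangle its 5′ end; the strongest peak is red, the other 44 are dark grey, and among these those of for (7187) and crp (4189) are the tallest.

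Within the windows, sgll and CG5568 were the most isolated. The nearest reproducible peaks to sgll were 29854 bp to the left and 110089 bp to the right, and those to CG5568 were 45521 and 29677 bp away. In the authors' relaxed pooled list, which keeps weak peaks too, the strongest other peak in the window of sgll had a signal of 146 at 16117 bp from its summit, and that of CG5568 had 87.1 at 2272 bp. TfAP-2 had a single other peak in its window, of 198 (64.7 in replicate 2 and 127 in replicate 3), which lay 1950 bp upstream of the gene, and its main peak was 241 times as strong. This holds for 20 kb on either side: with 50 kb the share of the TfAP-2 peak fell from 99.6% to 53.1%, the lowest of the 10, since a peak of 39467 lay 48503 bp from its summit.

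The gene for had the strongest second peak. With a pooled signal of 7187 (3481 in replicate 2 and 3759.9 in replicate 3), it lay 3206 bp past the 3′ end of for and 229 bp from the start of Ugt36A1, a UDP-glycosyltransferase gene, and held an exact core. Together with the main site it flanks the gene, 1 peak beyond each end, and the main site was 5.82 times as strong. Inside the gene a peak of 1118 (448 and 675 in replicates 2 and 3) lay 28 bp from another of its 4 starts, in a 5′ UTR, while peaks of 677 and 605 were in introns. A weak peak of 323 next to the internal start differed most between the replicates in this window, with 238 in replicate 2 and 87.5 in replicate 3, and a peak of 220.4 lay 198 bp from the start of Drgx.

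At crp the second peak had 4189 (1880.4 in replicate 2 and 2311 in replicate 3) and lay inside the gene, in an intron 11642 bp from the start, again with an exact core. It was the only one of the 44 besides that of for to hold an exact core within 50 bp. The main site was 10.2 times as strong. The window had 10 peaks, the most of the 10 genes, and 7 of the others were in introns of crp, 6 of them below 500. One of these, with 352, differed widely between the replicates, with 95.5 in replicate 2 and 261 in replicate 3. At the far end a peak of 287 lay 1 bp from the start of twe, which encodes a Cdc25-type phosphatase of the germ line.

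These second peaks are printed because they carry the same form of the core as the main site of crp, on the strand of the gene in both cases, again from RefSeq's dm6 assembly with the core copy in capitals.
for, second peak, chr2L:3618799-3618899, minus strand: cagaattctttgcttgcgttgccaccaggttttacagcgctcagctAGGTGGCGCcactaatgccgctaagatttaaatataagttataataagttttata
crp, second peak, chr2L:16276035-16276135, minus strand: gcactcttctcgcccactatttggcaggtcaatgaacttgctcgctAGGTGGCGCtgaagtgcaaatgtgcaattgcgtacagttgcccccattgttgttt

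RapGAP1 had 2 weak peaks at its own alternative starts. One had a signal of 708 (352 and 356 in replicates 2 and 3) at 211 bp from the start of its shortest transcript, and the other had 303 at 177 bp from a start near its 5′ end, with no matched summit in replicate 3. The strongest of the others, 753, lay beyond the 3′ end at 122 bp from the start of Ziz. Neither peak at a RapGAP1 start had a copy of the core with at most 1 mismatch within 50 bp.

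At mtSSB the strongest of 6 other peaks had 818 (398 and 421) and lay 16991 bp away near lncRNA:CR45643, while a peak of 260.4 covered the 5′ UTRs of sra, which encodes a calcineurin regulator, and Bin1. CG13896 had a peak of 773 (379 and 375) only 1454 bp from its main summit and 69 bp past its own 3′ end, 144 bp from the start of CkIIalpha-i3, and a peak of 306 lay 2 bp from the start of Vti1a, a SNARE gene. At CG10600 the strongest other peak had 922 (456 and 462) at 108 bp from the start of CG10602. At CG10357 it had 819 (376 and 451) in an intron of Eip63E, and a peak of 206 lay 126 bp from the start of dar1, a Krüppel-like factor gene. Main peaks in these 4 windows were 53.2 to 71.5 times as strong as the next.

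Of the 44 other peaks, 32 had a signal under 500, a limit that the median of all reproducible peaks, 345, is also below. Within 1 kb of a transcript start lay 21, beside 62.7% of all reproducible peaks. An exact core within 50 bp was found at 2 and a copy with at most 1 mismatch at 7, beside 12.7% and 24.8% of all. In both replicates 39 had a matched summit, as had 5233 of all 5443 reproducible peaks. The log2 ratios of the 39 ran from -1.45 to 1.45 with a median of 0.12 ± 0.49 (SD). The weak peaks thus varied between replicates by more than the main peaks did, and 5 of them had no matched summit in one replicate.

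**Figure D4:**
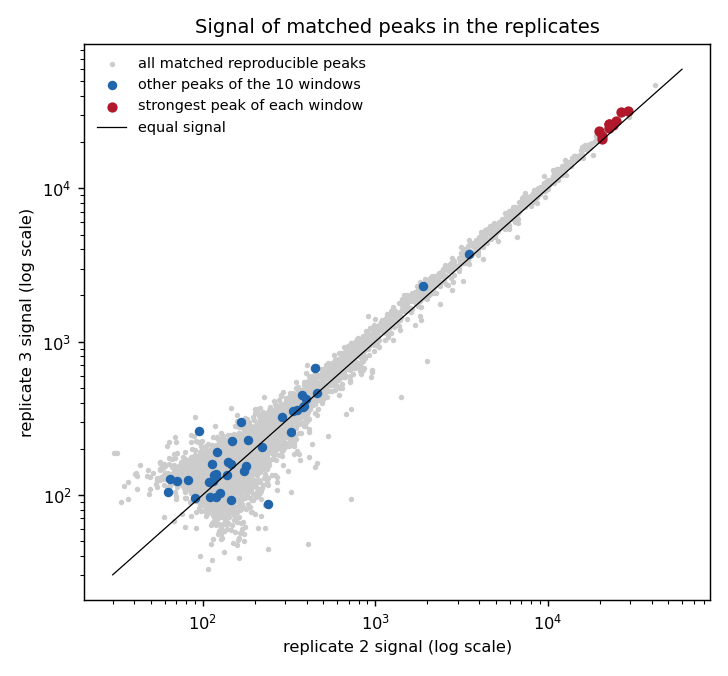
Signal in replicate 3 against replicate 2, both on log scales, for the 5233 matched reproducible peaks (grey), the 10 strongest peaks of the genes (red) and the 39 matched others in their windows (blue), with the line of equal signal. The red points lie above the line at the top right, and the blue points scatter to both sides at low signal, except those of for and crp.

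The distances to other strong sites are given with no background for other peaks beside them. Counting the 326 reproducible peaks with a signal of at least 10000, a limit set after the data had been examined, the closest to any of the 10 was 48503 bp to the right of the TfAP-2 peak, near CG43980, with a signal of 39467 and rank 25. The next was 55504 bp to the right of mtSSB, near bor, with 26806, and the third was 63021 bp to the left of CG10600, with 10033. On the other sides of these and around the other genes the distance was 105070 bp or more, up to 1991797 bp to the right of CG10357.

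The pathway partners of 3 of the genes were looked up from lists drawn up with earlier results of these data known. Of 9 genes for the maintenance and expression of mitochondrial DNA, 3 had a reproducible summit within 1 kb of a start, against 24.4% of all genes. One of these is mtSSB, chosen for its peak, and without it the count was 2 of 8, close to the background. The others were mTTF, a mitochondrial transcription termination factor gene, with 285 and mtTFB1 with 220.5. Both signals were below the median peak.

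Of 14 genes of cyclic GMP signalling, 6 had a summit within 1 kb, and 5 of 13 without for, beside 24.4% of all genes. After for, the strongest was Gycbeta100B, a subunit of soluble guanylyl cyclase, with 6184. The receptor-type cyclase Gyc76C had 742, the other cyclase subunit Gycalpha99B had 492, and the phosphodiesterase genes Pde11 and Pde6 had 315 and 303. That for exceeds its partners follows from how it was chosen.

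Of 7 genes of Rap1 signalling, 5 had a summit within 1 kb, and 4 of 6 without RapGAP1, beside 24.4% of all genes. The strongest was at PDZ-GEF, an exchange factor that activates Rap1, with 23406. RapGAP1 itself had 708 by this measure, since its intronic site is more than 1 kb from a start. Rgl had 343, canoe (cno), which acts with Rap1 at cell junctions, had 302, and Rap1 had 203. These counts describe the lists and carry no test.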

How the data were processed

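CTCF-GFP was precipitated from whole embryos in 2 replicates of 1 group. The signal of each peak was deposited by the authors in peak lists for dm6, 1 relaxed list per replicate, 1 for both pooled (each about 30000 peaks) and the reproducible list of 5443 peaks that passed the irreproducible discovery rate, per the file headers. A control entered the relaxed lists, per the file headers. For the aligner, the caller and the scale of the signal, nothing is given in the sources used here. Lists on dm3 were not used. Since the depth is unknown, no counting interval is given.

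The members and lists were chosen with earlier results of these data known. Genes came from Ensembl release 115 (FlyBase 6.54), sequence from the RefSeq assembly of dm6. Windows were the gene with 20 kb on either side. Summits within 100 bp were matched between lists, a promoter reached 1 kb from a transcript start each way, and the core motif was searched within 50 bp of the summit, allowing 0 or 1 mismatch, beside windows 500 bp to each side. PDZ-GEF was found through a synonym. Every gene named is a member, a neighbour, a gene at a peak of a window or a listed partner with a summit within 1 kb. No test was made, since all values describe peaks chosen by their signal. Alternatives were other window, motif and promoter distances, merged peaks, each replicate alone and the relaxed list. Scripts ran in Python 3.11.15 with numpy 2.4.6, pandas 2.3.3 and matplotlib 3.10.9 and were tested on simulated data, where 5 of 5 checks passed. Coordinates are 1-based.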

Additional observations from a re-analysis of the deposited data

How the results depend on the processing

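The count of 54 reproducible peaks in the 10 gene windows was 33 with 5 kb on either side, 35 with 10 kb and 87 with 50 kb. It was 310 when every peak of the relaxed pooled list was counted, and 50 to 57 with either replicate left out. With overlapping peaks merged it was 52, as the count at mtSSB went from 7 to 6 and that at CG13896 from 8 to 7. The count of 3 genes with an exact core at the strongest peak was 0 within 25 bp of the summit, 5 within 100 bp and 5 within 200 bp, and it was 9 with 1 mismatch allowed within 50 bp and 10 with 1 mismatch within 100 bp, the last chosen after seeing the data. It was 3 in either replicate alone. Of the strongest peaks, 6 lay within 1 kb of a start, 5 within 500 bp and 8 within 2 kb. The median share of the window's signal, 96.2%, was 99.4% with 10 kb, 93.7% with 50 kb and 95.9 to 96.0% with 1 replicate left out. The share at TfAP-2 fell to 53.1% with 50 kb, where the strong peak near CG43980 comes in. The median log2 ratio between replicates and the number of genes in the top 20 of both replicates kept their values under their alternatives. Peaks of 2 replicates, with no second condition and unknown depth, allow no test across samples. The authors' reproducible list was itself selected on agreement between these replicates.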
